A study of Mus musculus with 1012 samples.

Results

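The genes described here were 10 members of the Kruppel-like factor (KLF) family of mouse, taken by name: Klf2, Klf3, Klf4, Klf5, Klf6, Klf7, Klf9, Klf10, Klf13 and Klf15. They were 10 of the 30452 features in a table of read counts from 1012 single-cell libraries. Of these, 296 were Live-seq libraries, for which a hollow probe took up part of the cytoplasm of a living cell and an enhanced Smart-seq2 chemistry amplified the RNA, and 162 were libraries of whole IBA cells processed with or without an earlier cytoplasmic extraction. The rest were scRNA-seq (Smart-seq2) libraries of whole cells that had been trypsinized and sorted.

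The groups were as follows. RAW_Mock and RAW_LPS were RAW-G9 cells, a single clone of the RAW264.7 macrophage line that carries mCherry under the Tnf promoter and an EGFP-Rela fusion protein, so that untreated cells carried both transgenes too. RAW_LPS cells had received lipopolysaccharide (LPS), a component of bacterial cell walls that activates macrophages. Live-seq extraction took place 4 to 5 h later, and the study's methods give no LPS time for whole cells. The sources used here give different LPS doses, so none is stated. IBA was an immortalized line of brown preadipocytes from the interscapular brown fat of young male C57BL6/J mice. ASPC_Pre cells were primary adipose stem and progenitor cells from the subcutaneous fat of female C57BL/6J mice aged 7 to 10 weeks. ASPC_Post cells were the same kind of cell after 2 days in an adipogenic cocktail (DMIR: dexamethasone, IBMX, insulin and rosiglitazone), 4 agents that were given together and cannot be told apart. In the study, ASPC sampled both before and after induction were chosen among cells carrying a lentiviral GFP reporter with a genetic barcode for tracking. Whether other ASPC libraries came from such cells was not established here. In the sampling experiment, IBA cells were collected 1 h or 4 h after extraction and were set beside control cells labelled 0 h. No label says which cells came from which mouse, so the spread reported here is that between experimental batches.

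KLF proteins are transcription factors that bind GC-rich and CACCC sequences through a carboxy-terminal array of zinc fingers, and members differ mainly in the domain in front of it. Klf3 recruits the corepressor CtBP, Klf9, Klf10 and Klf13 recruit Sin3a, and Klf2, Klf4, Klf5, Klf6 and Klf7 carry activating domains. In fat cell formation the family is known for acting in sequence, with Klf4 and Klf5 on the early side, Klf9 and Klf15 later, and Klf2, Klf3 and Klf7 as restraints, while in macrophages Klf2 is known to restrain and Klf6 to favour inflammatory activation.

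All 10 genes were found in the table, and each had counts in some cells. On the mouse build GRCm38, Klf6 lies on chromosome 13 from 5861482 to 5870394 (plus strand), Klf3 on chromosome 5 from 64803388 to 64832901 (plus), Klf4 on chromosome 4 from 55527143 to 55532466 (minus), and Klf5 on chromosome 14 from 99298691 to 99315036 (plus). Klf15 lies on chromosome 6 from 90462576 to 90475238 (plus), Klf9 on chromosome 19 from 23141226 to 23168134 (plus), Klf13 on chromosome 7 from 63886351 to 63938915 (minus), and Klf10 on chromosome 15 from 38291463 to 38300706 (minus). Klf2 lies on chromosome 8 from 72319033 to 72321656 (plus), and Klf7 on chromosome 1 from 64029447 to 64122282 (minus). Counting ignored strand. Other annotated genes overlap the spans of Klf3, Klf7, Klf9 and Klf13. They lie on the same strand for Klf9, on the other strand for Klf13 and on both for Klf3 and Klf7. Whether exons overlap was not examined, and reads of any shared exon could not be assigned to a single gene. Klf6 had a count in 76.7% of the 1012 cells, the widest detection of the 10, and Klf15 in 5.83%, the narrowest.

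RefSeq promoters of 300 bases (250 before to 50 after the start, GRCm38.p6) matched 8 of the 10 symbols, all but Klf5 and Klf10. The 3 members whose level was higher after adipogenic induction in whole cells, Klf9, Klf13 and Klf15, are shown with the core of the cyclic AMP response element (TGACG, either strand) in capitals, since IBMX is known to raise cyclic AMP.
Klf15: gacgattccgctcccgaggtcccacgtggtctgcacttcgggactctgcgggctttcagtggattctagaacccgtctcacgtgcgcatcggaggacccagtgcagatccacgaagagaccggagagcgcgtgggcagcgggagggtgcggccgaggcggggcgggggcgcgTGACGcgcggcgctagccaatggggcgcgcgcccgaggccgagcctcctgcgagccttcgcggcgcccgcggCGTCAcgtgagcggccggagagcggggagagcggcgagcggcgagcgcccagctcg
Klf9: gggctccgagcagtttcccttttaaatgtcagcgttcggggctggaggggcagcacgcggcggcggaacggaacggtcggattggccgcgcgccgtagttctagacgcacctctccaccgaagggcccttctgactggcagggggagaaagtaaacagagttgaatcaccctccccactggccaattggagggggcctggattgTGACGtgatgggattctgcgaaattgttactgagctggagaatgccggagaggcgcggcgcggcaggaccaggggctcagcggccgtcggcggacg
Klf13: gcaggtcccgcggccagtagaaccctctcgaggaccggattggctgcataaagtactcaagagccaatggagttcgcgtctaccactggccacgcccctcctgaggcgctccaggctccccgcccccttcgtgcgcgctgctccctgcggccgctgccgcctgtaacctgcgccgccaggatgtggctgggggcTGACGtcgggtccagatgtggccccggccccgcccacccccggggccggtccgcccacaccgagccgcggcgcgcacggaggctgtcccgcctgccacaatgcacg
These windows are chr6:90462326-90462625 (plus), chr19:23140976-23141275 (plus) and chr7:63938866-63939165 (minus). Klf15 held 2 matches to TGACG, Klf9 held 1 at position -46 and Klf13 held 1 at position -56, counted from the start. The letters were not particular to these genes: Klf2, Klf3 and Klf4 also held 1 match each, and 20.8% of the 32851 promoters of this length held at least 1. The glucocorticoid receptor core TGTTCT was in none of the 8 windows and in 19.0% of all promoters. Klf15 also held 3 matches to the E-box CACGTG, 1 of which overlaps a TGACG match, and 7.15% of promoters held any.

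The promoter of Klf2 is shown because it was the member past 2-fold 1 h after extraction, and because Klf2 and Klf4 are known targets of the ERK5 and MEF2 pathway. Capitals mark a match to the MEF2 motif.
Klf2: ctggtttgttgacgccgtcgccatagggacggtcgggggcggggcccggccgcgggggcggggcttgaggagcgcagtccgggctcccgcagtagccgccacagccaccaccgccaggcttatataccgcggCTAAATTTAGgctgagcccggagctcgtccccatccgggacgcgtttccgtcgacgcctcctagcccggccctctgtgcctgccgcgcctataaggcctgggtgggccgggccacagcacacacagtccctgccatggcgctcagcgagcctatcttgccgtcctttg
The window is chr8:72318812-72319111 (plus), and the match begins at position -118. The MEF2 motif was in 3.19% of all promoters and was not found in the window of Klf4. The 8 windows were GC-rich, from 58.3% GC in Klf7 to 76.7% in Klf3, against a median of 52.7% over all promoters.

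The depth of a library, as its total count, lay between 64547 and 1603790 in Live-seq. It was from 41030 to 2671609 in scRNA-seq and from 38451 to 1077131 in the sampling experiment. The median number of genes detected was 3940 in Live-seq and 8435 in scRNA-seq, so a member with no count in a Live-seq cell is weaker evidence of absence. Counts were summed over the cells of a batch and state, and each sum of at least 3 cells was 1 replicate, given below as CPM, the counts scaled to a fixed total of kept counts. The labels held against marker genes in whole cells: 10 macrophage markers summed to 7852 to 11047 CPM in RAW sums, and 10 mesenchymal markers to 5068 to 14150 CPM in IBA and ASPC_Pre sums against 0.352 to 5.63 CPM in RAW sums. Macrophage markers ranged from 8.07 to 606.7 CPM over the 3 IBA sums of scRNA-seq, and their part in the results was not tested. The Live-seq ASPC_Pre sum of batch 8_8 stood apart, with Klf6 at 1760 CPM against 139.75 CPM in batch 9_4.

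Per kilobase of exon, Klf6 was the most abundant member in 4 of the 5 scRNA-seq states. In RAW_Mock cells the Klf6 level was 14.2 ± 4.32 CPM per kb (SD, n = 3), ahead of Klf10 at 7.95 ± 0.981, Klf13 at 3.96 ± 1.16 and Klf9 at 3.41 ± 0.518. Klf13 and Klf9 differed by less than their spread, and Klf7 followed at 2.65 ± 0.917. RAW_LPS cells kept Klf6 first at 13.99 ± 3.61 CPM per kb, and Klf7 came next at 9.88 ± 6.19, within the spread of Klf6. In IBA cells Klf6 at 28.1 ± 6.23 and Klf10 at 24.1 ± 5.18 CPM per kb did not differ beyond their spread, and Klf3 at 11.1 ± 4.38 and Klf5 at 7.09 ± 3.11 came after them. ASPC_Pre cells (n = 2 batches) had Klf6 at 63.1 ± 23.5 CPM per kb, Klf4 at 23.05 ± 12.6 and Klf3 at 11.8 ± 1.28. After induction, in a single batch, Klf4 at 22.6 CPM per kb and Klf6 at 19.2 led, and Klf15 at 9.38 stood beside Klf13 at 9.11. Klf5 and Klf15 were at 0 in both RAW states, where 3 counts over the group would have been 0.0467 CPM in RAW_Mock and 0.0478 CPM in RAW_LPS. These limits, and the intervals given below at 95%, cover counting error only, since PCR duplicates were not marked by molecular identifiers.

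**Figure D1:**
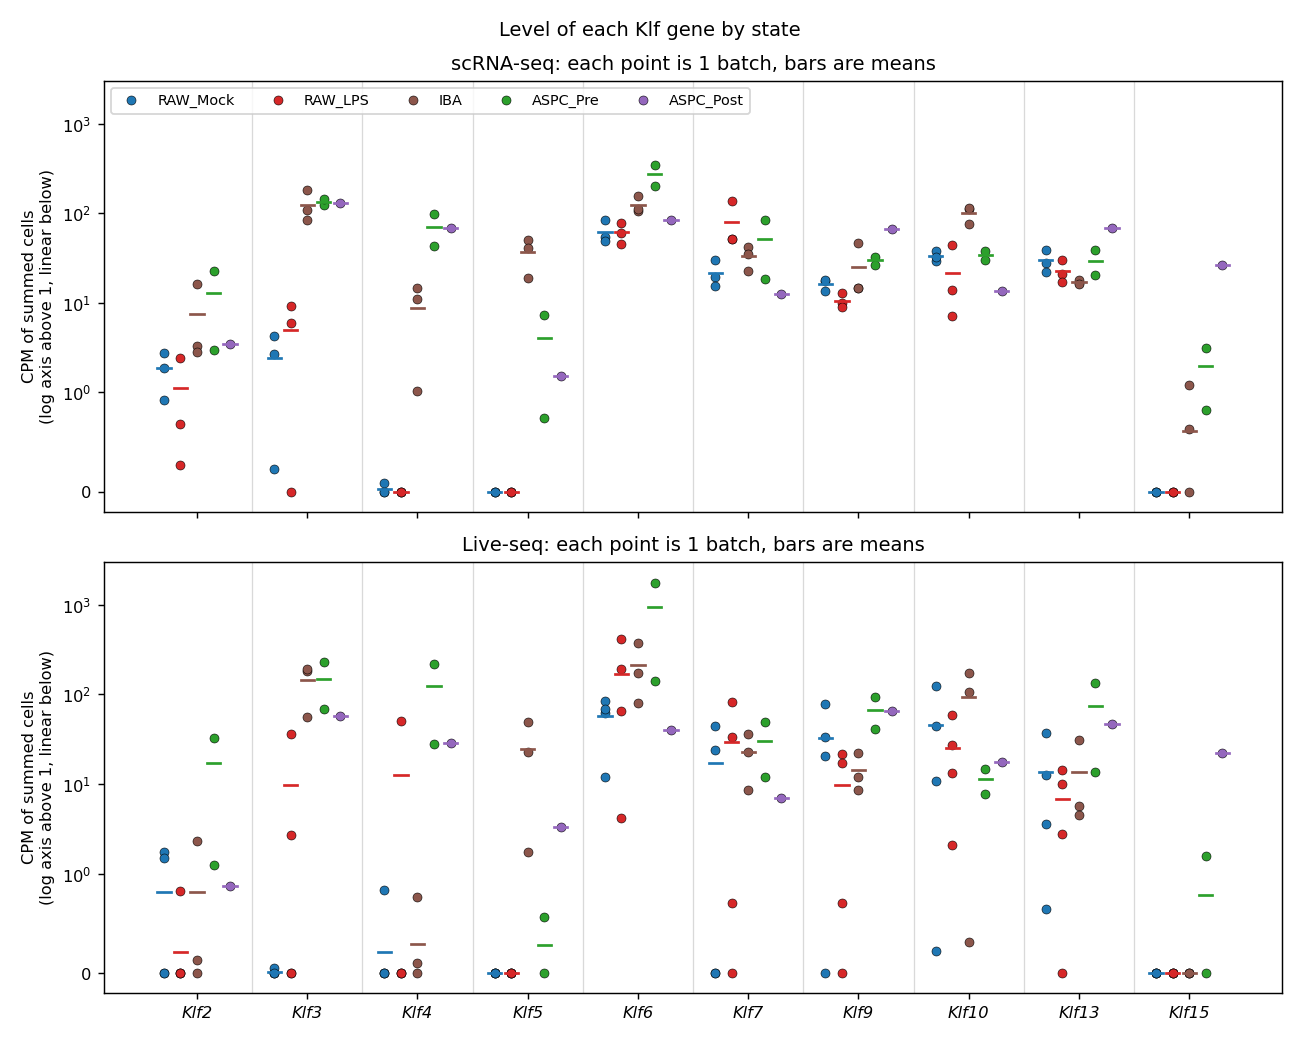
CPM of each of the 10 Klf genes (x axis) in each state, on an axis that is logarithmic above 1 CPM and linear below, for scRNA-seq (top) and Live-seq (bottom); each point is the sum of 1 batch and each bar the mean of the batches. In scRNA-seq Klf4 and Klf5 sit near 0 in the RAW states and Klf3 at no more than 9.12 CPM, against at least 85.3 CPM for Klf3 in IBA, Klf15 is highest in ASPC_Post at 26.2 CPM, and Live-seq points of 1 state are spread more widely.

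The macrophage line was compared with both mesenchymal cell types to ask which KLF genes differ with cell type before any treatment. In whole cells, 7 of the 10 members were lower in RAW_Mock than in the mean of IBA and ASPC_Pre, and none was higher. Klf4, Klf5 and Klf15 had few or no counts in RAW cells and entered the test only through IBA or ASPC cells. For them only a lower call was possible, so the direction of their calls was fixed in advance. Klf2 also entered only through IBA or ASPC cells. It had a count in 14.65% of RAW_Mock and 7.38% of RAW_LPS whole cells, under the 15% that the filter needs. The filter thus favoured a lower value for Klf2 in RAW_Mock. Klf3, the CtBP-dependent repressor, Klf4, a factor used in reprogramming to pluripotency, and Klf5, an activator of Pparg in fat cell formation, were far below the mean mesenchymal level. For Klf5 that level came mostly from IBA. By edgeR's quasi-likelihood test with Benjamini-Hochberg adjustment over 13563 genes, 25% of all genes were called lower and 12.9% higher, so a lower call was common in this comparison. The median log2 difference was -1.97 over the 10 members and -0.21 over all genes tested. The value over the members includes those whose direction the filter fixed or favoured, and model values for groups without counts. It therefore describes the list and is not a result about the family.

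Klf3 was at 0.231, 4.3 and 2.71 CPM in RAW_Mock (batches 8_8, 9_1 and scRNA), at 85.3, 108.8 and 179.9 CPM in IBA and at 122.8 and 143.2 CPM in ASPC_Pre (batches 8_8 and 9_1). The groups did not overlap, and every mesenchymal sum was far above every RAW sum. The log2 difference was -6.29 (SE 0.801, adjusted p = 0.000318). Klf4 had 3 counts in all RAW_Mock cells, in 1 batch, against 2266 counts in IBA and ASPC_Pre. Its CPM was 1.04, 11 and 14.5 in IBA and 97.5 and 43 in ASPC_Pre, and the ratio of the pooled levels was 500.3 (counting interval 170.97 to 2428), with an adjusted p of 0.000788 by edgeR. Klf5 had no count in RAW_Mock cells and 2204 in the mesenchymal cells, of which 2156 were in IBA and 48 in ASPC_Pre. It was at least 486.6-fold below the pooled mesenchymal level (adjusted p = 0.00164 by edgeR), a bound set mostly by IBA.

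Klf6, an activator that responds early to growth signals and injury, was counted in every sum. It was at 53.8, 84 and 49.1 CPM in RAW_Mock, at 154.9, 105.01 and 110.4 CPM in IBA and at 350.1 and 204.4 CPM in ASPC_Pre. All RAW sums were below all mesenchymal sums, with a log2 difference of -1.73 (SE 0.263, adjusted p = 0.000821, edgeR). Klf3, Klf4, Klf5 and Klf6 were called in each of the fits tried.

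Klf7, which inhibits fat cell formation, Klf9, a glucocorticoid and thyroid hormone target, and Klf15, a glucocorticoid target that favours it, were also called lower, but less firmly. Klf7 was at 19.4, 15.5 and 29.9 CPM in RAW_Mock against 22.5 to 41.9 CPM in IBA and 18.6 and 84.4 CPM in ASPC_Pre, so that the groups overlapped (log2 -1.20, SE 0.395, adjusted p = 0.0338, edgeR). Klf9 was at 13.6 to 18.2 CPM in RAW_Mock and at 14.8 to 46.3 CPM over both mesenchymal types, again overlapping (log2 -1.02, SE 0.352, adjusted p = 0.0409, edgeR). Klf15 had no count in RAW_Mock and 92 in the mesenchymal cells, at least 20.3-fold lower (adjusted p = 0.0232, edgeR), and its groups overlapped because IBA batch 8_8 was at 0. The Klf9 call was lost when any batch was left out (adjusted p from 0.0614 to 0.345). The Klf7 call was lost without batch 8_8 (0.178) or scRNA (0.124), and the Klf15 call without batch scRNA (0.0841).

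Klf2, Klf10 and Klf13 were not called in this fit. Klf13, first known as an activator of Ccl5 in T cells, was at 28.2, 22.1 and 39.3 CPM in RAW_Mock and at 16.1 to 38.9 CPM in the mesenchymal sums (log2 0.20, SE 0.327, adjusted p = 0.666, edgeR). Klf10, an early target of TGF-beta, gave a log2 difference of -0.98 (SE 0.467, adjusted p = 0.116, edgeR). Klf2 was at 0.924 to 2.77 CPM in RAW_Mock and at 2.80 to 22.9 CPM elsewhere (log2 -2.20, SE 0.91, adjusted p = 0.077, edgeR), non-overlapping in a comparison where 18.5% of genes were so in this direction. Klf2 was called lower by DESeq2 (adjusted p = 0.0363) and by the newer edgeR fit (0.0142), a direction that the filter favoured.

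**Figure D2:**
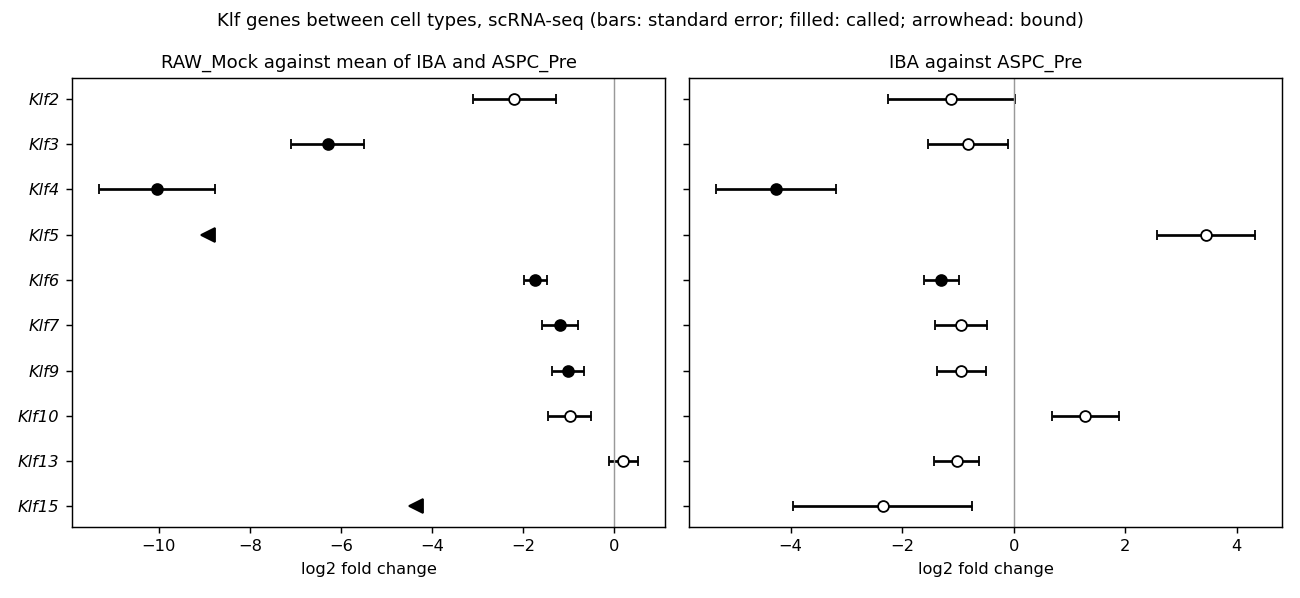
Log2 fold change of each Klf gene between untreated cell types in scRNA-seq, RAW_Mock against the mean of IBA and ASPC_Pre (left) and IBA against ASPC_Pre (right), with bars for the standard error as back-calculated from the test's F, filled circles for genes called by edgeR and arrowheads for genes without counts in RAW_Mock, drawn at their bound. On the left 7 genes are called, all lower, and on the right only Klf4 and Klf6 are called, both lower in IBA.

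Genes that work with the family gave mixed directions in the same comparison. Of 9 adipogenic partners, 7 were tested and 4 were called lower in RAW_Mock: Dlk1, a preadipocyte protein that Klf6 is known to repress, Egr2, Pparg and Fabp4. The glucocorticoid receptor Nr3c1 and its targets Sgk1 (-4.27), Dusp1 (-3.39) and Tsc22d3 (-2.91) were called lower, 4 of the 7 tested. Of the ERK5 and MEF2 genes, Mef2c (6.18) and Mef2a (1.43) were called higher and Mapk7, which encodes ERK5, lower (-1.14). Of 12 corepressor, coactivator and ligase genes, Ctbp2 (1.21) and the ubiquitin ligase Fbxw7 (1.00) were called higher and Sin3b (-1.10) lower, all as log2 differences. Among 16 other KLF and SP genes, 7 were tested and Sp9 was called, higher in RAW_Mock. Of 9 immediate early genes tested, Atf3 was called higher and 3 lower, led by Egr1 (-6.50) and Btg2 (-2.61).

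In Live-seq the same comparison gave 1.79% of 13451 genes lower and 1.29% higher, and 1 member was called. Klf3 had 1 count over 4 RAW_Mock sums and 4881 over IBA and ASPC_Pre, where it was at 55.7, 184.6 and 193.6 CPM in IBA and at 228.45 and 69.6 CPM in ASPC_Pre. The groups did not overlap, as for 7.45% of genes in this direction. The pooled ratio was 3752 (counting interval 673.2 to 148240), and the adjusted p was 0.00617 by edgeR, rising to 0.442 without batch 8_8 and 0.143 without batch 9_4. Klf5 again had no count in RAW_Mock, at least 107.1-fold lower, but did not pass the test (adjusted p = 0.327, edgeR). Klf4 had 15 counts in RAW_Mock, all in 1 cell, against 1324 in the mesenchymal cells (adjusted p = 0.213, edgeR). Klf6 gave a log2 difference of -3.29 (SE 1.19, adjusted p = 0.193, edgeR) and was called lower by DESeq2 (adjusted p = 0.0177). The others were within 2 standard errors of 0, apart from Klf15, which had no count in RAW_Mock and 25 in the mesenchymal cells, at least 6.41-fold lower. Of the other lists, 1 of 6 ERK5 and MEF2 genes was called higher, and 1 of 9 immediate early genes higher and 1 lower. Also called were 4 of 12 LPS genes and 9 of 9 macrophage markers, all higher, and 7 of 10 mesenchymal markers, all lower.

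IBA cells were set against ASPC_Pre cells to compare the brown preadipocyte line with primary progenitors. Klf4 and Klf6 were called lower in IBA, in a fit that called 7.47% of genes lower and 3.69% higher. Klf4 sums of 1.04, 11 and 14.5 CPM lay below the ASPC_Pre sums of 97.5 and 43 CPM (log2 -4.26, SE 1.08, adjusted p = 0.0473, edgeR). The Klf6 sums, given above, also did not overlap, as for 16.9% of genes in this direction (log2 -1.30, SE 0.31, adjusted p = 0.0317, edgeR). Both calls were lost whichever batch was left out, with adjusted p from 0.083 to 0.126 for Klf4 and from 0.0997 to 0.156 for Klf6.

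Klf5 and Klf10 stood the other way. Klf5 was at 50.9, 19.1 and 40.6 CPM in IBA and at 7.29 and 0.74 CPM in ASPC_Pre, without overlap but not past the test (log2 3.45, SE 0.884, adjusted p = 0.0679, edgeR). It was called higher in IBA by DESeq2 (adjusted p = 0.00878) and by the newer edgeR fit (0.0201). Klf10 was at 111.9, 75.8 and 114.5 CPM in IBA and at 38.4 and 30.3 CPM in ASPC_Pre (log2 1.28, SE 0.602, adjusted p = 0.189, edgeR). Groups without overlap and higher in IBA were found for 23.6% of genes, so this by itself says little. Klf13 (log2 -1.02, adjusted p = 0.127), Klf9 (-0.94, 0.189), Klf7 (-0.95, 0.204), Klf3 (-0.83, 0.475), Klf2 (-1.12, 0.551) and Klf15 (-2.35, 0.389) did not pass in edgeR. In Live-seq 0.0223% of genes were called and no member, while Klf5 at 1.75, 49.5 and 22.7 CPM in IBA lay above its ASPC_Pre sums of 0 and 0.566 CPM, and Klf4 at 0.103, 0 and 0.764 CPM lay below 217.2 and 28 CPM, where 16.8% of genes were without overlap and higher and 9.84% lower. Around the family, whole cells had Wwp1 (log2 -1.79), a ubiquitin ligase for Klf2 and Klf5, Mef2c (-2.60) and Dusp1 (-1.83) called lower in IBA, and Fkbp5 (1.87), Junb (1.73) and Ier2 (1.65) called higher. None of the 7 adipogenic partners or the 7 other KLF and SP genes tested was called. The 5 mesothelial markers summed to 1.24 to 15 CPM in IBA and to 36.5 to 162.2 CPM in ASPC_Pre, with Krt19, the 1 tested, called lower in IBA (-4.12), and their part in the Klf4 and Klf6 values was not tested.

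The response to LPS was examined in RAW-G9 cells, in 3 batches of whole cells and 4 of Live-seq. In whole cells no member passed the test, among 0.922% of 13563 genes called higher and 0.31% called lower. Among members with more than 3 counts, the widest difference was that of Klf7, at 51.1, 51.5 and 138.4 CPM in RAW_LPS against 19.4, 15.5 and 29.9 CPM in RAW_Mock of the same batches. It was higher in 3 of 3 batches, as for 14.8% of genes, and the groups did not overlap, as for 6.05%. The log2 difference was 1.97 (SE 0.423) with an adjusted p of 0.0667 by edgeR. It passed with DESeq2 (adjusted p = 0.00104), with the newer edgeR fit (0.03) and without the filter on low counts (0.0376), and it did not pass with any batch left out (0.089 to 0.435), so the call depended on the method.

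The other members did not pass. Klf9 was lower in 3 of 3 batches, as for 27.5% of genes, at 9.93, 9.10 and 12.7 CPM against 17.6, 13.6 and 18.2 CPM, without overlap, as for 11.5% of genes (log2 -0.51, SE 0.381, adjusted p = 0.6248, edgeR). Klf10 was higher in batch 8_8 (44.1 against 29.6 CPM) and lower in batches 9_1 (7.18 against 37.6) and scRNA (13.9 against 32.4), so the batches disagreed (log2 -0.75, SE 0.524, adjusted p = 0.597, edgeR). Klf6 at 60.8, 77.6 and 45.9 CPM against 53.8, 84 and 49.1 CPM overlapped fully (log2 0.11, SE 0.269, adjusted p = 0.962, edgeR). Klf2, known to restrain monocyte activation, was at 2.42, 0.275 and 0.678 CPM against 0.924, 1.88 and 2.77 CPM (log2 -1.18, SE 1.02, adjusted p = 0.684, edgeR). Klf3 (log2 1.05, adjusted p = 0.578) and Klf13 (log2 -0.27, adjusted p = 0.832) did not pass in edgeR either, and Klf4, Klf5 and Klf15 had at most 3 counts in either state. The same fit found the LPS genes high, with a median log2 difference of 4.36 over 12, of which Nfkbia, the NF-kB inhibitor, passed (2.23, SE 0.374, adjusted p = 0.0318, edgeR). None of the other KLF and SP, corepressor, ERK5 and MEF2, adipogenic, glucocorticoid or immediate early genes was called.

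**Figure D3:**
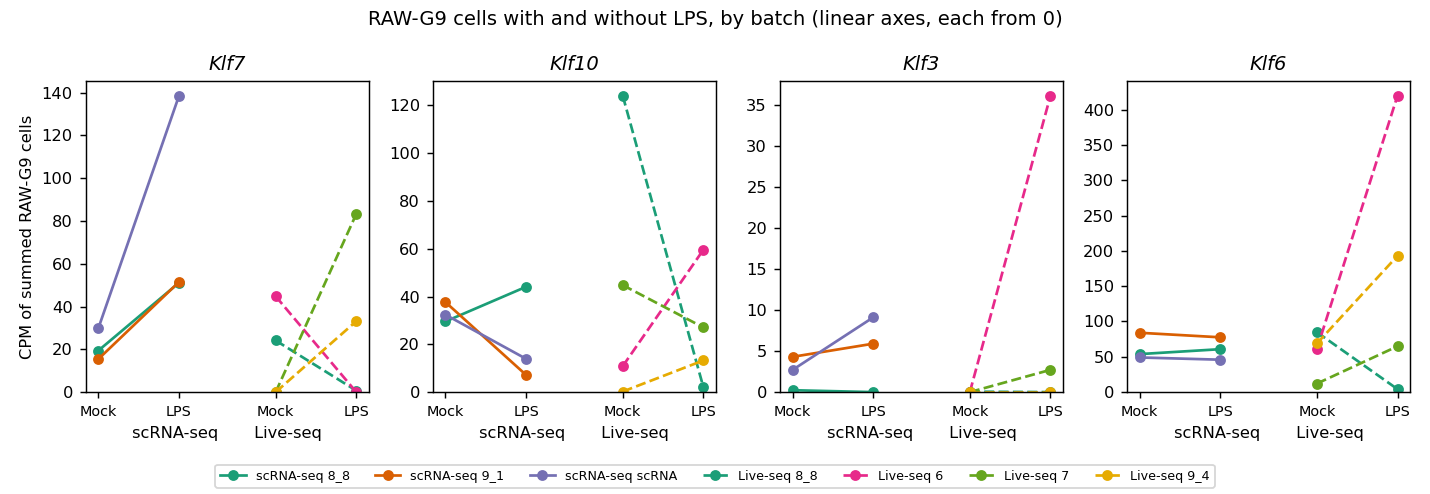
CPM of Klf7, Klf10, Klf3 and Klf6 in RAW-G9 cells without (Mock) and with LPS, each line joining the 2 sums of 1 batch, solid for scRNA-seq and dashed for Live-seq. The 3 scRNA-seq lines of Klf7 all go up, to 51.1, 51.5 and 138.4 CPM, whereas Live-seq lines of Klf7, Klf10 and Klf6 go in both directions. Klf3 lines of Live-seq go up in 2 of 4 batches, and the only fall is from 0.0553 CPM to 0.

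In Live-seq edgeR called no gene after LPS, although 3.98% of 13451 had an unadjusted p under 0.05, and DESeq2 called 4.91%. Single cells set many of the sums. Klf6 was at 419.8, 64.9, 4.19 and 192.99 CPM in RAW_LPS (batches 6, 7, 8_8 and 9_4) and at 61.4, 12.1, 84.8 and 68.9 CPM in RAW_Mock, and in batch 6 all RAW_LPS counts came from 1 of 4 cells (log2 1.59, SE 1.11, adjusted p = 1.0, edgeR). Klf7 was at 0, 83.2, 0.699 and 33.1 CPM in RAW_LPS and at 44.8, 0, 24.1 and 0 CPM in RAW_Mock, higher in 2 of 4 batches. Klf3 was at 36.2, 2.72, 0 and 0 CPM in RAW_LPS against 0, 0, 0.0553 and 0 CPM, with each nonzero LPS value from 1 cell. The test of the difference in LPS response between the techniques called no gene of 11757 in edgeR, with 4.69% at an unadjusted p under 0.05 and 0.51% called by DESeq2, and each of the 8 members tested had an adjusted p of 1.0 by edgeR. In simulated data with Live-seq's spread, edgeR recovered 0% of genes changed 4-fold in this comparison, against 85% in scRNA-seq. The Live-seq test thus had no power at that size. The fold was set equal in every batch and given to better-counted genes only. Recovery of a response that varies between batches was not tested. In the measured scRNA-seq data, edgeR called 1 of 12 LPS genes, at a median log2 difference of 4.36.

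For 4 RAW cells a library was made both before and after LPS. By the study's design LPS came together with a second extraction in such cells, and these libraries are also part of the sums above. Some RAW_LPS libraries without a partner here are labelled as second extractions too. Klf7 was counted only after LPS in 2 of them, at 329.9 and 135.65 CPM, and in neither library of the other 2. Klf6 was counted after LPS in 2 cells (0 to 164.9 CPM and 20.9 to 279.4 CPM) and only before it in 1 (16.3 CPM). Both libraries of the cell at 20.9 and 279.4 CPM are labelled as first extractions, so its order was taken from the LPS label. Klf13 was counted only after LPS in 2 cells, that cell among them, and only before it in 1. Wild-type RAW264.7 cells, which lack the transgenes, had 11 libraries after LPS and 1 without. Klf6 was at 67.6 CPM and Klf7 at 50.6 CPM after LPS, while the single untreated library had no count of any member, so no response could be read from it.

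Adipogenic induction was examined in 1 batch of each technique that held both states, so no test across batches was possible and differences carry counting intervals only. Klf15, Klf13 and Klf9 were higher after 2 days and Klf6 and Klf10 lower in whole cells, by over 2-fold. In Live-seq Klf15 and Klf13 were again higher and Klf6 lower past this size. Among genes with at least 10 CPM in 1 state, 14% of 9362 were higher by this measure in whole cells and 11.2% lower. In Live-seq the shares were 13.5% and 17.9% of 8786, so that the counts of members, 3 higher and 2 lower of 8 in whole cells and 2 and 1 of 8 in Live-seq, stand against a frequent background.

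Klf15, a glucocorticoid target in fat and muscle that activates Glut4, had the widest difference of the family. It was at 26.2 CPM in ASPC_Post and 0.822 CPM in ASPC_Pre of the same batch, 31.9-fold higher (20.4 to 52.7), and at 3.16 CPM in the other ASPC_Pre sum. Live-seq gave 22.1 against 1.57 CPM, 14.1-fold higher (9.39 to 22.1), with the other ASPC_Pre sum at 0. The share of whole cells with a count, after thinning each cell to 50000 counts, went from 2.27% to 42.9% (18.2% and 65.7% unthinned). No RAW_Mock whole cell had a count, which, at the limit of 3 cells, allows a share of cells with a count of up to 1.91%. Of the genes compared, 99.9% in whole cells and 99.3% in Live-seq had a ratio at or below that of Klf15. Klf15 was high in some induced cells and uncounted in others, with a median of 12.9 CPM and a highest value of 228.5 CPM over 35 cells.

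Klf13 and Klf9, both Sin3a-recruiting factors, were higher by less and were counted in most induced cells. Klf13 was at 68.6 CPM after induction against 20.4 CPM (3.36-fold, 3.03 to 3.74), with 38.9 CPM in the other ASPC_Pre sum, and it was counted in 35 of 35 induced cells, as Klf9 was in 32. Live-seq gave 46.2 against 13.5 CPM (3.44-fold, 2.95 to 4.02), but the other ASPC_Pre sum, that of the batch that stood apart, was at 133.2 CPM. Klf9 was at 66.8 against 26.7 CPM (2.50-fold, 2.27 to 2.76), with 32.8 CPM in the other sum. In Live-seq it was at 65.3 against 41.1 CPM (1.59-fold, 1.44 to 1.76), with 92.8 CPM in the other sum, so the induced value lay between both controls.

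Klf6 was lower after induction. In whole cells it was at 84.3 CPM against 204.4 CPM, a ratio of 0.412 (0.389 to 0.437), and below the other ASPC_Pre sum of 350.1 CPM. Live-seq gave 39.8 against 139.75 CPM, a ratio of 0.285 (0.26 to 0.311), with 1760 CPM in the other sum. In both techniques the induced value was below both controls. Klf7 was at 12.5 against 18.6 CPM (ratio 0.674) in whole cells and at 7.01 against 11.9 CPM (0.587) in Live-seq. Klf10 differed between techniques, with a ratio of 0.443 (0.38 to 0.514) in whole cells and 1.19 (0.993 to 1.42) in Live-seq, where 8 of 37 induced and 12 of 43 other cells held its counts and thinning turned the log2 ratio from 0.25 to -0.37.

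Klf3 and Klf4 differed less. Klf3 was at 131.9 against 143.2 CPM (ratio 0.922) in whole cells and 57.2 against 69.6 CPM (0.822) in Live-seq. Klf4 was at 68.8 against 43 CPM (1.60), inside the range of both ASPC_Pre sums, and at 28.5 against 28 CPM (1.02) in Live-seq. Klf5 and Klf2 stayed under 10 CPM, at 1.51 and 3.48 CPM after induction in whole cells. Over all genes compared, 29.8% lay above both ASPC_Pre sums of scRNA-seq and 37.1% below, a position that Klf9, Klf13 and Klf15 (above) and Klf6, Klf7 and Klf10 (below) shared. The shares were 27.5% and 30.4% in Live-seq, where Klf10 and Klf15 lay above both sums and Klf2, Klf3, Klf6 and Klf7 below, so that Klf10 took the opposite position to that in whole cells.

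**Figure D4:**
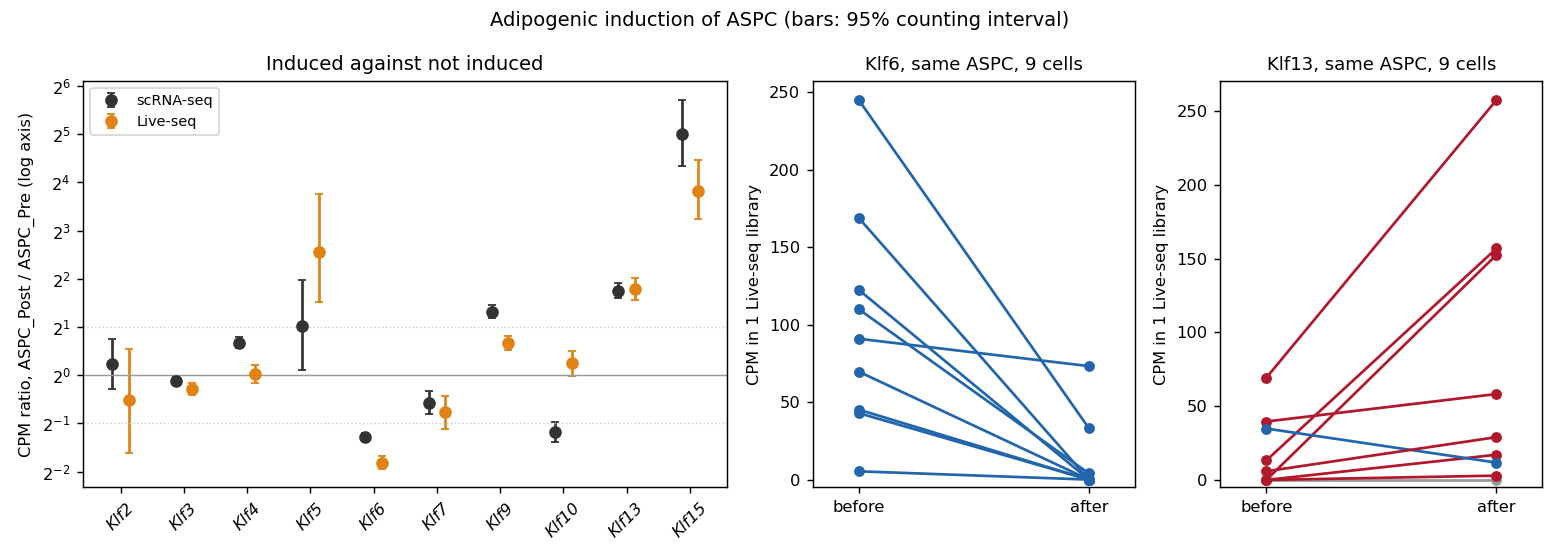
Left, ratio of CPM in ASPC_Post over ASPC_Pre for each Klf gene on a log axis, with 95% counting intervals, for scRNA-seq (black) and Live-seq (orange), and dotted lines at 2-fold; middle and right, CPM of Klf6 and Klf13 in the Live-seq libraries of the same 9 ASPC before and after induction, 1 line per cell, red where higher after, blue where lower and grey where equal. Klf15 stands at 31.9 and 14.1, Klf6 at 0.412 and 0.285, and the Klf6 line goes down in 9 of 9 cells, all of batch 9_4.

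Genes that act with the family were compared in the same way. Of 7 glucocorticoid genes, 5 were higher in both techniques, among them Fkbp5 (3.78 to 60.8 CPM) and Per1 (11.6 to 66.4 CPM) in whole cells and Zbtb16, which went from no count to 24.4 CPM. Of 9 adipogenic partners, 6 had enough counts and 4 were higher in whole cells, led by Fabp4, the fatty acid binding protein (16 to 571.7 CPM), Cebpa (1.36 to 22.1 CPM) and Cebpb (14.2 to 74.3 CPM). In Live-seq 2 of 4 were higher. Of the immediate early genes 8 had enough counts, and 3 were higher in whole cells (Egr1, Zfp36 and Fos) and 2 in Live-seq. Of 12 corepressor, coactivator and ligase genes, Crebbp, Sin3a, Ep300 and Fbxw7 were higher in both techniques, and Wwp1 was lower in Live-seq. Sp1 was the only other KLF or SP gene past the fold in both techniques, and Map3k3 was higher in both (17.2 to 44 CPM in whole cells). Mesothelial markers moved too: their sum was 36.5 to 162.2 CPM in the ASPC_Pre sums of scRNA-seq and 0.29 CPM after induction, and 37.2 to 213.99 CPM and 0.0626 CPM in Live-seq. Their part in the Klf values was not tested, nor was that of a change in the mix of cells, since fewer cells of a type and less RNA per cell cannot be told apart in a sum.

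By the labels, 9 ASPC had a Live-seq library both before and after induction, with medians of 286933 and 425111 kept counts. All were of batch 9_4, so the cells are not replicates of the induction. These libraries are also part of the sums above, and induction came together with a second extraction. The study's own text counts fewer ASPC pairs with matching barcodes than the labels list, and the labels do not say which pair differs. Klf6 was lower after induction in 9 of 9 cells, against 0.58% of 7752 genes, and in 6 of them it had no count afterwards. Its values before were 42.9, 168.9, 5.36, 45.2, 122.5, 69.7, 90.96, 245.1 and 109.99 CPM, and after, in the same order, 0, 0, 0, 0, 0, 0, 73.3, 33.2 and 3.96 CPM. The value of 5.36 CPM was 1 count. In the cell at 90.96 CPM raw counts went from 23 to 25, so only the scaled value was lower. Klf3 was lower in 8 of 9 cells, as 3.06% of genes were in at least 8, and had no count in either library of the ninth. Klf13 was higher in 7 of 9 cells, as 1.38% of genes were in at least 7, from 0 to 152.6 CPM in one cell and from 69.4 to 257.6 CPM in another, and lower in 1 (34.9 to 11.8 CPM). Klf9 was higher in 6 of 9 and lower in 3. Klf15 was counted only after induction in 3 cells, at 249.2, 62 and 25.5 CPM, only before it in 1 (5.88 CPM) and in neither library of 5.

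The sampling experiment asked how IBA cells change after part of their cytoplasm is removed. It was a single batch, with 70 control cells, 49 cells at 1 h and 43 at 4 h. Both times were compared with the same control cells, so they are given side by side with counting intervals and no test. Klf2 was higher at 1 h, and Klf4 and Klf13 at 4 h, each by over 2-fold, and no member was lower by that much. Among genes with at least 10 CPM, 2.29% of 8804 were higher at 1 h and 4.33% lower, and 2.63% and 5.74% of 8813 at 4 h.

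Klf2 was at 8.44 CPM in control cells, 22.7 CPM at 1 h and 6.60 CPM at 4 h, with ratios of 2.69 (2.28 to 3.18) and 0.782 (0.612 to 0.994). At the later time the level was slightly below the control value. The other IBA sums of scRNA-seq were at 3.34, 2.80 and 16.1 CPM, all below the 1 h value. Cells with a Klf2 count went from 37.1% in control to 57.1% at 1 h and 30.2% at 4 h, or 20.6%, 32.7% and 14% after thinning.

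Klf4, which shares the ERK5 and MEF2 input with Klf2, was at 8.16, 12.2 and 25.1 CPM, with ratios of 1.5 (1.24 to 1.81) and 3.08 (2.595 to 3.67). The 4 h value was above all 4 IBA control sums, of which the highest was 14.5 CPM. Klf13 was at 14.6, 13.1 and 32.2 CPM, with ratios of 0.898 (0.766 to 1.05) and 2.21 (1.92 to 2.53), and its control sums all lay between 14.6 and 18.1 CPM. Klf2 was thus high at the earlier time and Klf4 and Klf13 at the later, a difference in order that was not tested. In cells at 4 h, thinned shares with a count were 39.5% for Klf4 and 67.4% for Klf13, against 14.7% and 35.3% in control cells.

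Per kilobase, Klf6 and Klf10 led at all 3 times, and the third place went to Klf2 at 1 h (12.3 CPM per kb) and to Klf4 at 4 h (8.25 CPM per kb). Klf7 was at 26.4, 47.7 and 47.3 CPM (ratios 1.81 and 1.79), above all 4 control sums at both times. Klf6 was at 222.9, 311.2 and 221.2 CPM (ratios 1.40 and 0.992), and Klf10 at 85.5, 112.7 and 122.4 CPM (1.32 and 1.43). Klf9 was at 16, 18.4 and 28 CPM (1.15 and 1.75). Klf3 and Klf5 were the members with lower values at both times, Klf3 at 46.35, 36.3 and 29 CPM (0.784 and 0.6253) and Klf5 at 44.5, 29.6 and 35.5 CPM (0.665 and 0.797). The Klf3 control sum of this batch was already below the other IBA sums, which were at 85.3 CPM or more. Klf15 had no count at any time, and 3 counts would have been 0.123, 0.138 and 0.189 CPM. Values above all 4 control sums were found for 14.7% of genes at 1 h and 14.3% at 4 h, and values below all of them for 27.4% at each time.

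**Figure D5:**
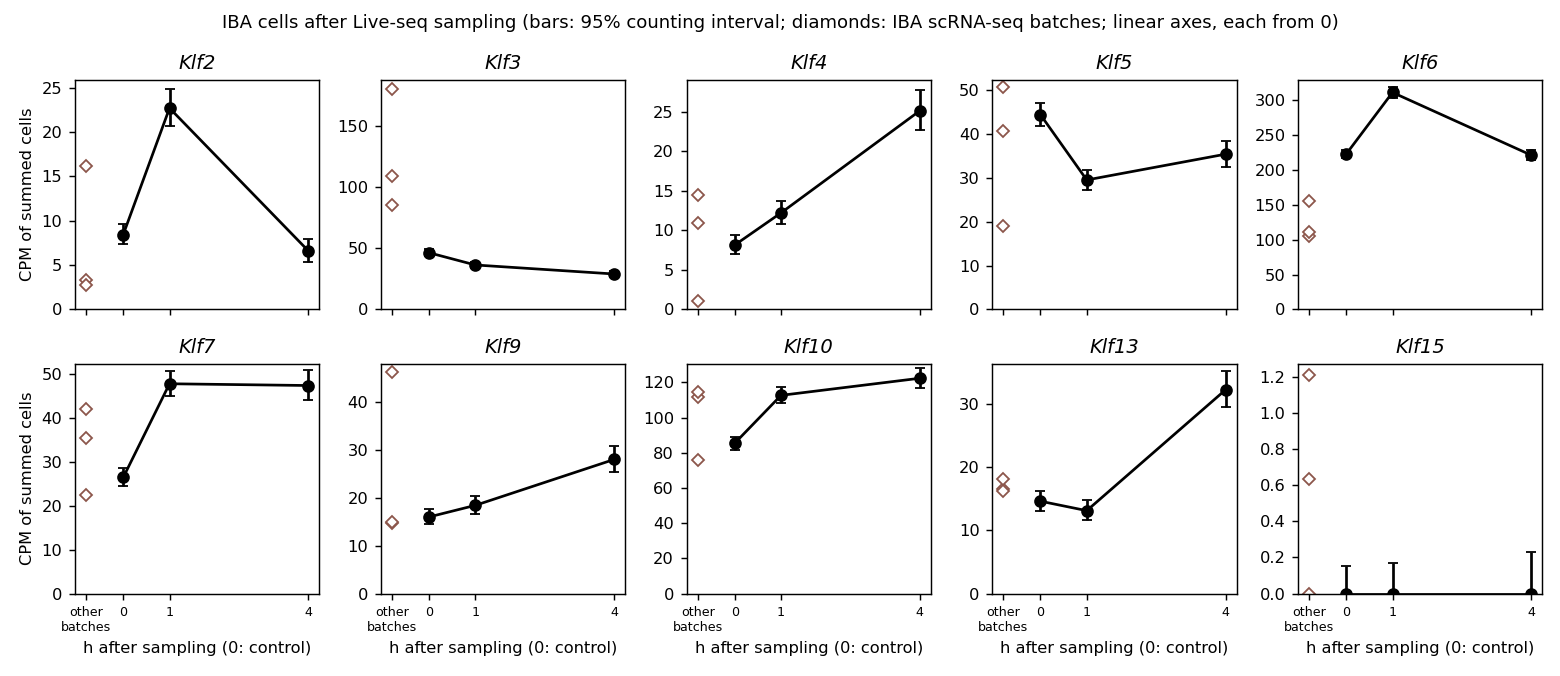
CPM of each Klf gene in IBA cells against hours after extraction (0 is the control), with black points for the sum at each time, bars for the 95% counting interval and open diamonds for the 3 IBA sums of other scRNA-seq batches, each panel on a linear axis from 0. Klf2 peaks at 1 h at 22.7 CPM, Klf4 and Klf13 reach 25.1 and 32.2 CPM at 4 h, and Klf15 stays at 0.

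Among the genes around the family, Klf11, a close relative of Klf10, had the widest difference of the other KLF and SP genes, from 5.53 CPM in control to 40.2 CPM at 1 h and 30.9 CPM at 4 h, and Sp2 was higher at 4 h (10.5 to 25.2 CPM). No ERK5 or MEF2 gene of 5 with enough counts and no corepressor, coactivator or ligase gene of 12 passed 2-fold at either time. Of the 10 immediate early genes, 3 were higher at 1 h: Atf3 (4.02 to 33.7 CPM), Fosb (3.07 to 19.0 CPM) and Fos (12.8 to 51.9 CPM). At 4 h Atf3 was still higher (20.4 CPM), while Ier2 (180.97 to 47.3 CPM), Egr1 (153.02 to 58.1 CPM) and 2 others were lower. Fabp4 was higher at both times (6.02 CPM in control, 19.6 CPM at 1 h and 22.5 CPM at 4 h), Egr2 at 1 h, and no glucocorticoid gene of 5 and 6 with enough counts passed 2-fold at 1 h and 4 h. Macrophage markers summed to 23.4, 19.8 and 27.3 CPM and mesothelial markers to 3.48, 7.93 and 0.566 CPM at 0, 1 and 4 h.

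Within a state, members varied from cell to cell. A few pairs with a high Spearman's rho across cells of 1 batch, which share a library preparation and differ in depth, are given here beside their values in other groups, and were chosen after their values were seen. Klf3 and Klf4 had a rho of 0.52 in Live-seq ASPC_Pre (n = 43 cells) and 0.47 in Live-seq ASPC_Post (n = 37), 0.42 and 0.26 in the same states of whole cells, and between -0.13 and 0.20 in 5 sums of IBA cells. Klf9 and Klf15 had a rho of 0.45 and Klf4 and Klf15 of 0.49 in ASPC_Post whole cells (n = 35), but -0.10 and 0.11 in Live-seq. In IBA cells at 4 h (n = 43), Klf4 had a rho of 0.53 with Klf5 and 0.51 with Klf10. In the other 4 IBA sums these values ranged from -0.14 to 0.14 and from -0.02 to 0.30, so none of these pairs was alike in every group. Over the 12 scRNA-seq sums, the genes whose log2(CPM + 1) was most like that of Klf4 were Reck (Pearson's r 0.988), Nnmt (0.986) and Stox2 (0.985), with 0.511, 0.78 and 0.836 over the 14 Live-seq sums. For Klf3 they were Pik3r3 (0.984), Gypc (0.983) and Socs5 (0.978), with 0.69, 0.862 and 0.499 in Live-seq. For Klf6 they were Siglecg (0.937), Krt19 (0.931) and Cemip (0.926), with 0.597, 0.605 and 0.567, and for Klf10 Hdac6 (0.924), St3gal4 (0.887) and Gtf3a (0.881), which had 0.105, -0.042 and -0.146 in Live-seq. The sums share batches, so these values describe likeness and were not tested.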

How the data were processed

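The authors aligned reads to GRCm38 (mm10) with STAR 2.6.1c, used HTSeq to count those unique to an annotated Ensembl gene on either strand, filtered cells and deposited raw counts of 1012 libraries; these deposited counts are the only unit used, and no other column was left unmapped. The 10 members and all gene lists were chosen with earlier results of these data known. Groups and batches came from the labels. Before scaling, 20 genes that the study found in empty controls and 91 that encode ribosomal proteins were dropped. Cells of a batch and state were pooled by adding counts, if there were 3 or more. A gene entered the tests if 15% of cells in some scRNA-seq state held 2 or more of its counts and it passed filterByExpr (minimum count 2, proportion 0.05). It was tested in R 4.3.3 with edgeR 4.0.16 (TMM, glmQLFit, glmQLFTest, state plus batch) and called at an adjusted p under 0.05 with an absolute log2 fold change above 1. The SE given with edgeR values was back-calculated, as the absolute log2 fold change divided by the square root of the test's F. DESeq2 1.42.0, the newer edgeR fit, RLE factors, no filter, no block, all genes kept and each batch left out were alternatives. The batch label pairs the sums: deviations of RAW_Mock and RAW_LPS from their group means correlated within a batch at 0.287, 0.459 and 0.522 in scRNA-seq and at 0.233, 0.0718, 0.0262 and 0.115 in Live-seq. Comparisons within 1 batch were called past 2-fold with at least 10 CPM in 1 state, with Poisson intervals. Where a group had no counts, a floor of 3 counts over the group was used. The fits were checked on simulated counts with 200 of the better-counted genes changed by an equal fold in every batch. Every member was named. From each list up to 3 called genes with the largest change were named, and the 3 most alike genes of the 4 most abundant members; others were chosen after their values were seen. P-values measure the spread between sums that is left after state and batch are fitted. All sums of a technique share the estimate of that spread, so the LPS test within a technique also draws on IBA and ASPC sums. With no donor labels that spread may be technical.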

Additional observations from a re-analysis of the deposited data

Results flagged for a closer look

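Of 16 groups of 4 sums examined, 5 held a Live-seq sum far from the other 3, where chance gives about 1 in 20 for values with a normal spread. In 4 of the 5 the other sums were at 0, so that any count stood apart and this rate does not apply. In RAW_LPS, Klf2 was at 0.828 CPM in batch 9_4 and at 0 in the others, Klf3 at 36.2 CPM in batch 6, and Klf4 at 50.3 CPM in batch 6, from 1 cell each in batch 6. In RAW_Mock, Klf3 was at 0.0553 CPM and Klf4 at 0.83 CPM in batch 8_8 and at 0 in the others, each from 1 cell. After extraction from IBA cells, Klf2 had a ratio to control of 2.69 at 1 h and 0.782 at 4 h, and Klf13 of 0.898 and 2.21, and these opposite directions were not tested. Klf10 had a ratio after adipogenic induction of 0.443 in scRNA-seq and 1.19 in Live-seq, and that difference was not tested. In wild-type RAW264.7 cells after LPS, Klf2 at 14.4 CPM (75 counts, 85.3% of them in 1 cell) and Klf13 at 57.4 CPM (counted in 7 of 11 cells) were above all 8 RAW-G9 Live-seq sums, where line and batch cannot be told apart.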

How the results depend on the processing

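Live-seq depth and spread limited its tests. For LPS, the comparison simulated, edgeR recovered 0% and DESeq2 7% of 4-fold changes there, and 1 cell often held most counts of a member. Calls of Klf3, Klf4, Klf5 and Klf6 as lower in RAW_Mock held in every fit of whole cells, and the other calls depended on the fit or on a batch. The Klf9 call was also lost with DESeq2 and with RLE factors, both at a log2 of -0.99, and without the filter (adjusted p = 0.0718 by edgeR). With all genes kept before scaling, edgeR's adjusted p became 0.0545 for Klf7, 0.0511 for Klf9 and 0.0502 for Klf4 in IBA against ASPC_Pre. Where a count or value moved, the cause was not tested. The share of genes called after LPS in scRNA-seq, 1.23%, became 5.26% with DESeq2, 3.03% with the newer edgeR fit, 0.896% of a longer list without the filter, 0.258% with no replicate block and 0 to 0.135% with a batch left out. For IBA against ASPC_Pre, 11.2% became 19.4% with the newer edgeR fit, 7% with no replicate block, where Klf4 was no longer called, and 0.322% to 11.3% with a batch left out. For RAW_Mock against the mean of IBA and ASPC_Pre, no replicate block left 5 of 7 members called, without Klf7 and Klf9. In Live-seq, the share after LPS went from 0 to 4.91% with DESeq2, which called Klf3 higher (adjusted p = 0.0343), and that of the difference in response from 0 to 0.51%. For RAW_Mock against the mean of IBA and ASPC_Pre, 3.09% became 13.8% with DESeq2, 7.69% with the newer edgeR fit, 6.16% with no replicate block and 0.112% to 3.83% with a batch left out. For IBA against ASPC_Pre, 0.0223% became 1.96% with DESeq2, 0.0595% with the newer edgeR fit, 0.0633% without the filter, 0.0966% with no replicate block and 0 to 0.0223% with a batch left out. Thinning to 50000 counts per cell moved the share of genes past 2-fold from 6.62% to 10.9% at 1 h and from 8.37% to 12.5% at 4 h after extraction. Of 50 pairs of member and whole-cell state, 20 had a count in most thinned cells and 13 had at least 2 counts.

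The direction reversed for members that were not called. In Live-seq, the newer edgeR fit gave 0.20 for Klf13 after LPS, 0.11 for Klf10 in RAW_Mock against the mean (0.19 with no replicate block) and 0.07 for Klf3 in IBA against ASPC_Pre, all on the log2 scale. The difference in LPS response became 0.45 for Klf7 with DESeq2, -0.31 for Klf10 with no replicate block and 0.25 for Klf13 with the newer edgeR fit. With a batch left out, log2 values in scRNA-seq ranged from -2.28 to 0.02 for Klf2 and from -0.49 to 0.13 for Klf13 after LPS, and from -2.04 to 0.25 for Klf2 in IBA against ASPC_Pre. In Live-seq after LPS they ranged from -5.95 to 2.04 for Klf2, -2.77 to 6.23 for Klf4, -2.44 to 8.30 for Klf7, -1.37 to 1.13 for Klf10 and -1.17 to 0.18 for Klf13. In RAW_Mock against the mean they ranged from -2.89 to 2.13 for Klf2, -2.26 to 1.98 for Klf10 and -1.24 to 0.10 for Klf13, and in IBA against ASPC_Pre from -0.98 to 0.42 for Klf3 and -2.49 to 0.26 for Klf6. The difference in LPS response ranged from -6.22 to 1.58 for Klf2, -5.80 to 5.71 for Klf7, -3.89 to 0.42 for Klf9, -0.04 to 3.09 for Klf10 and -1.62 to 0.64 for Klf13. After thinning, the log2 ratio of Klf15 after induction was 6.16 in scRNA-seq against 4.99 and 2.88 in Live-seq against 3.82. Among all values of members, 85.3% stayed the same. For tested values this means direction and call, and for untested ratios a place inside the counting interval. Of all values, 1.22% gained a call, 3.12% lost one, 5.71%, all untested ratios, moved beyond their counting interval and 4.62% reversed. An untested ratio was counted as reversed only if it was past 2-fold in the main setting. Smaller ratios that changed direction are in the other shares.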
